A study of Rattus norvegicus with 8 samples.

Results

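Genes of the tricarboxylic acid (TCA) cycle were followed in H9C2 cells, a cardiomyoblast line from the embryonic rat heart, that carried different forms of the nuclear receptor PPARα. The 9 genes were Cs, Idh2, Idh3a, Idh3g, Ogdh, Dlst, Dld, Sucla2 and Mdh2. They were taken by name, as the features of the deposited count table with exactly these symbols. The list of names was drawn up with earlier results of these data known. They are 9 of the 32258 features of that table, and all 9 were among the 12407 genes that passed the filter on low counts. All 4 groups were H9C2 cells transduced for 2 days with a pDC316 vector that expresses yellow fluorescent protein (YFP). The control group received YFP alone. The other groups received YFP joined to wild-type PPARα (WT), to the phospho-resistant mutant S280A or to the phospho-mimicking mutant S280D. Each group held 2 strand-specific poly(A) RNA libraries. Whether the 2 came from separate cultures is not stated, and the p-values therefore reflect only the spread between these libraries, which may be technical.

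The TCA cycle runs in the mitochondrial matrix, where it oxidises the acetyl group of acetyl-CoA to carbon dioxide and passes the electrons on as NADH and FADH2. In heart muscle most of the acetyl-CoA that enters the cycle comes from fatty acid oxidation, which PPARα is known to control through genes of fatty acid uptake and breakdown. Citrate synthase (Cs) opens the cycle. The isocitrate dehydrogenases Idh2, which uses NADP, and Idh3, an NAD-dependent enzyme of which Idh3a is the catalytic and Idh3g a regulatory subunit, make 2-oxoglutarate. The 2-oxoglutarate dehydrogenase complex is built from Ogdh, Dlst and Dld, and Dld also serves the pyruvate and branched-chain dehydrogenase complexes. Sucla2 is the ADP-forming β subunit of succinyl-CoA ligase, and Mdh2 is the malate dehydrogenase that closes the cycle.

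The 8 libraries held 14018785 to 39526013 exon reads. Levels are in CPM, the exon reads of a gene scaled to the TMM-adjusted total of its library. Ppara, the delivered gene, stood at 59.5 to 74.4 CPM in YFP and at 12382 to 24134 CPM in the 6 libraries given the receptor, as the labels state. Per the file headers, lane 1 held the YFP libraries and lane 2 the WT libraries, and the S280A and S280D libraries were divided, 1 to a lane. The first principal component, with 56.4% of the variance, put YFP and S280A (-51 to -16.4) apart from WT and S280D (20.7 to 47.5). The share of all genes whose libraries divide in this way was not counted. Such a division of single enzymes or their ratios below is therefore not shown to be particular to them. The share of exon reads on mitochondrial chromosome genes was 0.49% to 0.791% in YFP and S280A and 1.17% to 1.66% in WT and S280D. Exon length was also correlated by rank with each gene's log2 CPM in a library, taken relative to its mean over the 8 libraries. That correlation was -0.247 to -0.0648 and 0.129 to 0.238 in the same sets, and its sign compares libraries with each other only. Markers of fibroblasts and mesenchyme summed to 64055 to 74746 CPM in YFP and S280A and to 45866 to 54626 CPM in WT and S280D, over 6 of 6 genes, none at 0. The 4 smooth muscle markers summed to 12342 to 17411 CPM and 8761 to 10327 CPM in these sets, again with none at 0. Group means of Acta2, Cnn1 and Tagln went with this sum. Myh11 went the other way, at 4.53 and 4.01 CPM in YFP and S280A and 5.41 and 5.3 in WT and S280D. Among the fibroblast markers that passed the filter, Col1a1, Col1a2 and Vim went with their sum, and Thy1 and Col3a1 did not separate these sets. The 10 cardiomyocyte markers reached only 139 to 278 CPM and the 7 skeletal muscle lineage markers 1.69 to 3.1 CPM, with Chrna1 at 0. Most of the cardiomyocyte sum was Tnnt2, with group means of 147 to 219 CPM. Gata4 was at 6.52 to 9.65 CPM and the other tested cardiomyocyte markers were lower. Endothelial markers (3 of 4 in the table) summed to at most 1.35 CPM and leukocyte markers to at most 1.43 CPM, with Ptprc at 0. The part of these shared differences in the results below was not tested, other than lane and exon length, which were fitted. Fewer cells of a kind and less RNA per cell cannot be told apart in these bulk libraries.

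Promoters are shown of the 6 enzymes called in one contrast, on both sides of it: Dld and Sucla2 were higher and Idh2, Idh3g, Ogdh and Mdh2 lower in S280D than in S280A. The sequences are from RefSeq on the GRCr8 build and run from 250 bases before to 50 bases after the annotated start, 5′ to 3′ on the strand of the gene. They lie at chr6:53652298-53652597 on the minus strand (Dld), chr15:55161644-55161943 on the plus strand (Sucla2), chr12:26543792-26544091 on the minus strand (Mdh2), chrX:156675433-156675732 on the minus strand (Idh3g), chr1:143467199-143467498 on the minus strand (Idh2) and chr14:85363781-85364080 on the plus strand (Ogdh). Capitals mark a match to one of the motifs described after the sequences, on either strand.
Dld: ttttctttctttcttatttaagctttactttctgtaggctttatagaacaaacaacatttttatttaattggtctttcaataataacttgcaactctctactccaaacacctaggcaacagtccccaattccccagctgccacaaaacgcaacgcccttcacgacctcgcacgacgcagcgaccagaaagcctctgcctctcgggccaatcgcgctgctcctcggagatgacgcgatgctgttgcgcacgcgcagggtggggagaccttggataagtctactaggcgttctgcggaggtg
Sucla2: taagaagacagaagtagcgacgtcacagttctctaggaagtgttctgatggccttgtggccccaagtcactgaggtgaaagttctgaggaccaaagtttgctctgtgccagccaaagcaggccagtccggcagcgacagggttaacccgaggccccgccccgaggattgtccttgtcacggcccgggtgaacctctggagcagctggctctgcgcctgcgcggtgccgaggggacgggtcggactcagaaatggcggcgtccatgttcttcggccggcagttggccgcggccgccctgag
Mdh2: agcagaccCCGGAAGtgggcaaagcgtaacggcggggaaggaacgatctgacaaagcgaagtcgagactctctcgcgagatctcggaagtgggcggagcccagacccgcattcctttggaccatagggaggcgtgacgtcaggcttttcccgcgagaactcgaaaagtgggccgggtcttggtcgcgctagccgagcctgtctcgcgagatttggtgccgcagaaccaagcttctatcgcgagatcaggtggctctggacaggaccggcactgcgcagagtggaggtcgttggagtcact
Idh3g: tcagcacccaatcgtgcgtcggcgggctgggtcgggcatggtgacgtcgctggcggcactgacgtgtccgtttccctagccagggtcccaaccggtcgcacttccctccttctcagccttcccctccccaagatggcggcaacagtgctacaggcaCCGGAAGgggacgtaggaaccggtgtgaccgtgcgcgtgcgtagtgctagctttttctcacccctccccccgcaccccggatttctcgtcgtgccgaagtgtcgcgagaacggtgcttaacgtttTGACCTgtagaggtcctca
Idh2: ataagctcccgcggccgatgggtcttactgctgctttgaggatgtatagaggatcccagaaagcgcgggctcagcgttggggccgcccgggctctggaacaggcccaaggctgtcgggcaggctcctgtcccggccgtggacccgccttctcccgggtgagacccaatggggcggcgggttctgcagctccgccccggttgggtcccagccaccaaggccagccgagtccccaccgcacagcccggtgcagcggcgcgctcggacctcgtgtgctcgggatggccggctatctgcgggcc
Ogdh: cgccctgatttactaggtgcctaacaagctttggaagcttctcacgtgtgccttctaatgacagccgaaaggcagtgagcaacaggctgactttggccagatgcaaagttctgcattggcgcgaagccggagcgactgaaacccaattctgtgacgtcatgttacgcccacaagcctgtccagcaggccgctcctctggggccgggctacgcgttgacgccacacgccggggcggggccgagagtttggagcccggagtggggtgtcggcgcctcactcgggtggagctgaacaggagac

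Promoters were given for 8 of the 9 enzymes, the exception being Idh3a, and each motif was searched on both strands of all 33469 promoters of 300 bases. The direct repeat bound by PPAR with RXR, searched as a pair of AGGTCA half-sites in direct repeat with 1 base between them, was in 0 of 8 and in 0.0538% of all promoters. Its half-site AGGTCA, which is also part of the longer repeat and of the ERR motif, was in Idh3g alone, 32 to 37 bases after the start on the opposite strand, and in 16.2% of all. The ERR motif TCAAGGTCA was in 0 of 8 (0.433% of all) and the palindromic NRF1 motif, GCGCA joined to its reverse complement, in 0 of 8 (0.852% of all). The ETS core CCGGAAG, recognised by GABP, was in Mdh2 (242 to 236 bases before the start), Idh3g (94 to 88 before) and Dlst (20 to 14 before, opposite strand), and in 8.75% of all promoters. Of the 6 shown, Dld and Sucla2, both higher in S280D, and Idh2 and Ogdh, both lower, held none of these letters in this window. A match is a string of letters and not a bound site, and a window without one says nothing of the factor.

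Per kilobase of exon the enzymes spanned more than an order of magnitude. Median levels over the 8 libraries, in RPKM (CPM divided by the exon length in kilobases), were 172 for Mdh2 (124 to 252), 90.7 for Cs (83.7 to 104), 75.6 for Idh2 (60.4 to 110), 74.5 for Dld (46.8 to 120) and 53.5 for Dlst (45.9 to 59.3). They were 23.2 for Idh3a (21.9 to 25.4), 22.3 for Idh3g (19.9 to 30.2), 9.12 for Sucla2 (6.11 to 14.7) and 5.9 for Ogdh (4.1 to 8.2). In this order only the steps from Mdh2 to Cs, from Dlst to Idh3a and from Idh3g to Sucla2 had no overlap of library values. Of the exon reads of Ogdh 53.4% were unique to 1 place in the genome, and of those of Dld 85.8%, against 99.9% to 100% in the other members. The level of Ogdh per kilobase, with reads that could belong to similar sequences elsewhere, is therefore uncertain.

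**Figure D1:**
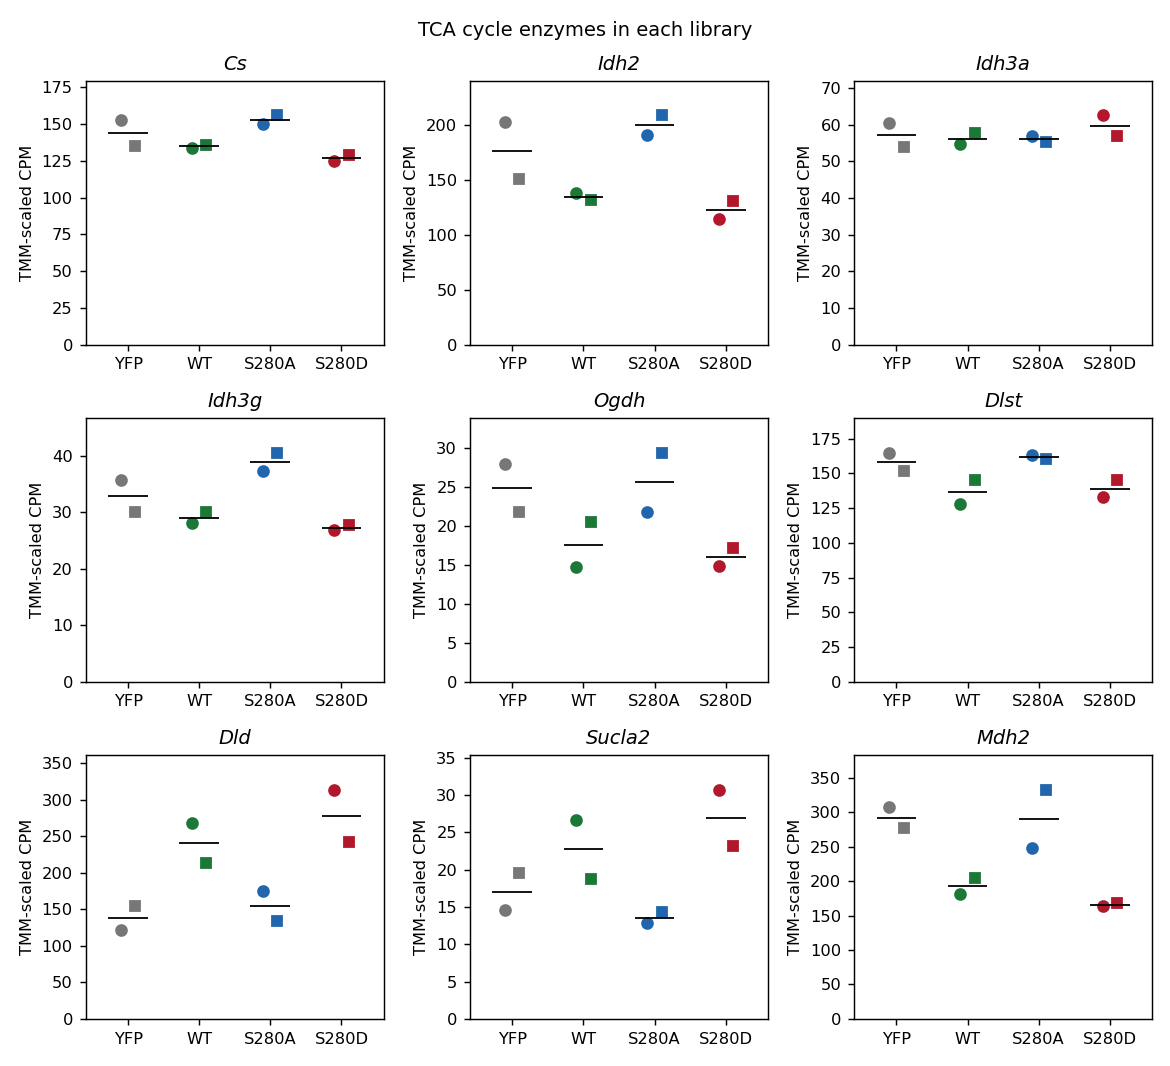
TMM-scaled CPM (vertical axes, from 0) of the 9 TCA cycle enzymes in each library of the 4 groups, with circles for replicate 1, squares for replicate 2 and a bar at the mean of 2. Dld is at 214 CPM or more in WT and S280D and at 175 CPM or less in YFP and S280A, and Mdh2 is at 205 CPM or less and 249 CPM or more in the same sets.

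The enzymes did not move as one. Of the 54 values (9 genes in 6 comparisons) 18 passed edgeR's quasi-likelihood test at an adjusted p under 0.05, adjusted over all genes tested. Between WT and YFP 2 of 9 passed, Dld higher and Mdh2 lower, where 19.6% of all genes passed (12.2% higher and 7.45% lower). Between S280D and YFP 5 of 9 passed (30.7% of all genes, 17.1% higher and 13.7% lower): Dld and Sucla2 were higher, and Idh2, Ogdh and Mdh2 lower. Between S280D and S280A 6 of 9 passed (39.3% of all, 21.3% higher and 18% lower), with Dld and Sucla2 higher and Idh2, Idh3g, Ogdh and Mdh2 lower. Between S280A and WT 5 of 9 passed (26% of all, 10.1% higher and 15.9% lower): Idh2, Idh3g and Mdh2 were higher in S280A, and Dld and Sucla2 lower. Cs, Idh3a and Dlst passed in none of the comparisons. The median log2 fold change of the 9 enzymes was -0.18, -0.19, -0.26 and 0.24 in these comparisons, and that of all genes -0.01, -0.02, -0.01 and 0.01. Comparisons that share a group also share its libraries, and so are not independent.

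The remaining comparisons held no called enzyme. Between S280A and YFP 0 of 9 passed in edgeR, with 0 at an unadjusted p under 0.05 and 0 in DESeq2, and 0.0403% of all genes passed after adjustment. Of all genes 12.9% had an unadjusted edgeR p of 0.0566 or less, so 0 of 9 is not shown to set the enzymes apart. Log2 fold changes ran from -0.33 for Sucla2 (95% interval -0.83 to 0.16) to 0.24 for Idh3g (-0.07 to 0.55). Between S280D and WT the counts were the same: 0 of 9 in edgeR, 0 at an unadjusted p under 0.05 and 0 in DESeq2, with 0.0403% of all genes called. Here 4.11% of all genes had an unadjusted edgeR p of 0.0428 or less, which likewise does not set the enzymes apart. Log2 fold changes ran from -0.22 for Mdh2 (-0.54 to 0.09) to 0.25 for Sucla2 (-0.22 to 0.71), and that of Dld was 0.20 (-0.20 to 0.60). These intervals reach from a fall to a rise, so they do not show that the 2 receptors act alike on these genes.

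The counts changed with lane and with single libraries. With lane as a covariate 0 enzymes passed between WT and YFP (0.0725% of all genes), 2 between S280D and YFP (13.3%), 0 between S280A and WT (8%) and 6 between S280D and S280A (32.3%), the only contrast with 1 library of each group in each lane. No lane holds both WT and YFP, so with lane fitted that contrast rests on the lane difference within S280A and S280D, and its SEs were larger: Dld was at 0.80 ± 0.28 on the log2 scale, as without lane, and Mdh2 at -0.41 ± 0.21. Without YFP replicate 1 the count was 0 between WT and YFP (5.98% of all genes) and 2 between S280D and YFP (12.2%). Without WT replicate 1 it was 0 between WT and YFP (1.28%) and 0 between S280A and WT (0.0552%), and without WT replicate 2 it was 1 (7.42%) and 3 (10.2%). Without S280A replicate 2 it was 0 between S280A and WT (0.0468%) and 2 between S280D and S280A (9.78%). Without S280D replicate 1 it was 2 between S280D and YFP (7.24%) and 1 between S280D and S280A (10.5%). In each of these settings where the count of enzymes fell, the share of all genes fell too.

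**Figure D2:**
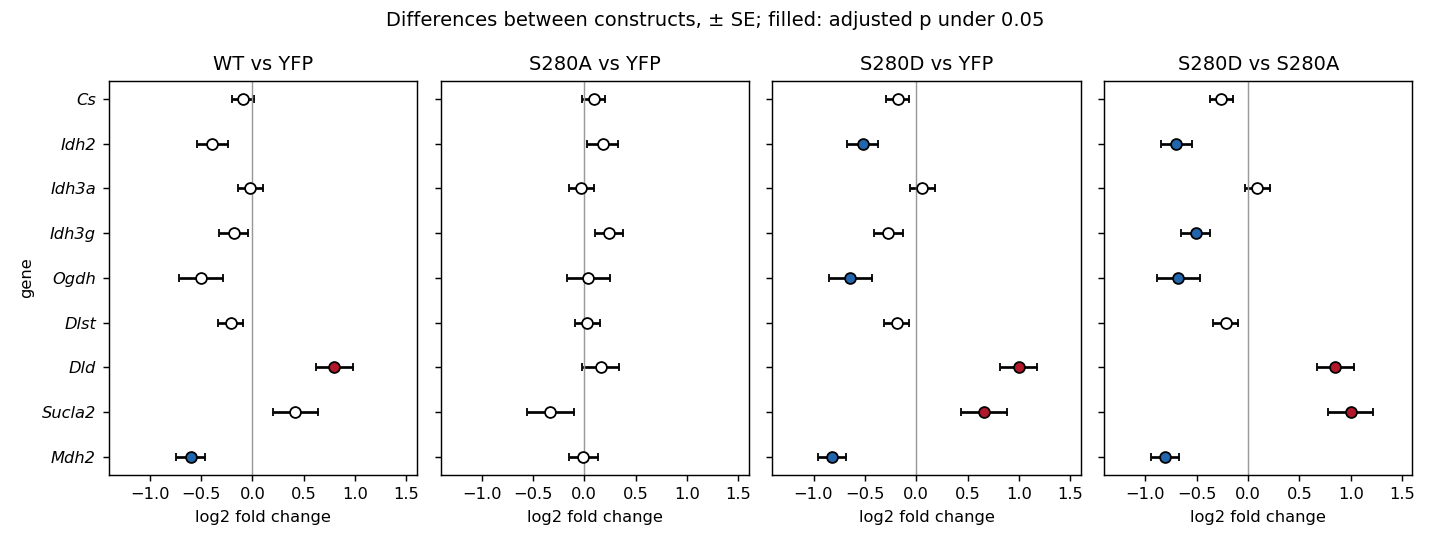
Log2 fold changes (horizontal axes) of the 9 enzymes in 4 comparisons, with bars of ± 1 SE from edgeR; filled points passed at an adjusted p under 0.05, red higher and blue lower. In the S280D panels Dld and Sucla2 lie right of 0 and Mdh2, Idh2 and Ogdh left of it, while no point of S280A against YFP is filled.

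Cs, on chromosome 7 (Rnor_6.0, 2752679 to 2778963, 11 exons), condenses acetyl-CoA with oxaloacetate. It stood at 153 and 135 CPM with YFP, 134 and 136 with WT, 150 and 156 with S280A and 125 and 129 with S280D. The S280A libraries lay above all WT and S280D libraries, and those of YFP spanned the gap. The log2 difference between S280D and S280A was -0.26 ± 0.11 (SE), which did not pass (edgeR adjusted p = 0.0796). The other comparisons gave -0.18 to 0.18, with adjusted p from 0.243 to 0.948.

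Idh2, on chromosome 1 (141866282 to 141893705, 13 exons), makes NADPH in the matrix. It was measured at 203 and 151 CPM with YFP, 138 and 132 with WT, 191 and 209 with S280A and 115 and 131 with S280D. The WT and S280D libraries lay below all others, and the 2 YFP libraries were far apart. In S280D it fell by 0.52 ± 0.15 on the log2 scale against YFP (edgeR adjusted p = 0.0217) and by 0.70 ± 0.15 against S280A (adjusted p = 0.00529), or to 0.617 of the level. In S280A it was 1.48-fold higher than in WT, a log2 change of 0.57 ± 0.15 (adjusted p = 0.0201). Against YFP, WT was at -0.39 ± 0.15 (adjusted p = 0.0809). That value passed without YFP replicate 2 (-0.59 ± 0.14, adjusted p = 0.0176), with no filter on low counts (adjusted p = 0.0334) and on reads that cross exon junctions (-0.68 ± 0.15, adjusted p = 0.00462). Of the exon reads of Idh2 46% and 50.3% crossed a junction with YFP, and 36.7% to 42.3% with the receptors. The fall against YFP was lost without YFP replicate 1 (adjusted p = 0.182), without S280D replicate 1 (0.214), in a fit of the 4 libraries compared (0.0527) and with lane (-0.54 ± 0.18, 0.0788). The call between S280A and WT was lost without WT replicate 1 (0.128), WT replicate 2 (0.0923) or S280A replicate 2 (0.141), and with lane (0.58 ± 0.18, 0.0711). The call between S280D and S280A was lost without S280A replicate 2 (0.051) or S280D replicate 1 (0.0723). With an added threshold of a 1.5-fold change, the calls of Idh2 in S280D against YFP and in S280A against WT were lost. Within lane 1 the log2 difference of Idh2 between S280D and S280A was -0.86 and within lane 2 it was -0.54, each from 1 library a group.

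Of the 2 Idh3 subunit genes Idh3g passed in some comparisons and Idh3a in none, and the difference between them was not tested. Idh3a, the catalytic subunit on chromosome 8 (59164571 to 59183908, 11 exons), stood at 60.4 and 53.9 CPM with YFP, 54.8 and 57.6 with WT, 56.9 and 55.3 with S280A and 62.5 and 57 with S280D. Its highest library was 1.16 times its lowest, the narrowest range of the 9 enzymes. All 6 log2 differences lay between -0.03 and 0.09, each with an SE of 0.12. Between S280D and S280A, for example, the 95% interval ran from -0.17 to 0.35.

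Idh3g, on the X chromosome (156999825 to 157008733, 13 exons), was at 35.8 and 30.1 CPM with YFP, 28.1 and 30 with WT, 37.4 and 40.6 with S280A and 26.8 and 27.8 with S280D. The S280A libraries were the highest and the S280D libraries the lowest. Idh3g fell by 0.51 ± 0.14 on the log2 scale in S280D against S280A (edgeR adjusted p = 0.0147), and was -0.60 in lane 1 and -0.42 in lane 2. This call was lost without S280A replicate 2 (adjusted p = 0.0947), S280D replicate 1 (0.125) or S280D replicate 2 (0.0505). In S280A it was 0.42 ± 0.14 higher than in WT (adjusted p = 0.0454). Both calls of Idh3g were lost with the added 1.5-fold threshold. The call between S280A and WT was lost under many other settings as well. The adjusted p was 0.0977 with no filter on low counts, 0.0615 with the replicate number as a block, 0.15 with lane (0.41 ± 0.18 on the log2 scale), 0.0589 with an offset for exon length and 0.0802 on junction reads. It was 0.258 and 0.113 without WT replicate 1 or 2, 0.0527 and 0.202 without S280A replicate 1 or 2, and 0.0797 and 0.0688 without S280D replicate 1 or 2. The ratio of Idh3a to Idh3g per kilobase was 0.921 and 0.979 with YFP, 1.07 and 1.05 with WT, 0.833 and 0.745 with S280A and 1.28 and 1.12 with S280D. The groups did not overlap in this ratio, and it was lowest in S280A and highest in S280D.

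Of the subunits of the 2-oxoglutarate dehydrogenase complex, Dld rose and Ogdh fell in S280D against YFP and S280A, and Dlst did not pass. Dld, the dihydrolipoamide dehydrogenase that regenerates the lipoyl group of the complex, lies on chromosome 6 (50597676 to 50618694, 14 exons). It was at 122 and 155 CPM with YFP, 269 and 214 with WT, 175 and 134 with S280A and 314 and 242 with S280D. Both WT and both S280D libraries lay above all 4 libraries of YFP and S280A. Dld rose 1.74-fold in WT against YFP, a log2 change of 0.80 ± 0.18 (edgeR adjusted p = 0.0153). In S280D it rose 2.01-fold against YFP, 1.00 ± 0.18 (adjusted p = 0.00358), and 1.80-fold against S280A, 0.85 ± 0.18 (adjusted p = 0.00595). In S280A it was lower than in WT by -0.64 ± 0.18 (adjusted p = 0.0279).

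The call of Dld in S280D against YFP held without each library and with lane (1.00 ± 0.21, edgeR adjusted p = 0.0153). In WT against YFP the adjusted p of Dld was 0.0939 and 0.153 when YFP replicate 1 or WT replicate 1 was left out and 0.209 with lane. Between S280A and WT it was 0.223 without WT replicate 1, 0.239 without S280A replicate 2 and 0.0858 with lane (-0.65 ± 0.22). Between S280D and S280A it was 0.0728 without S280A replicate 2 and 0.0605 without S280D replicate 1, and the log2 difference was 1.23 in lane 1 and 0.47 in lane 2. Reads of Dld across exon junctions gave smaller changes against YFP: 0.48 ± 0.19 in WT (adjusted p = 0.0989) and 0.60 ± 0.19 in S280D (adjusted p = 0.0283). Of the exon reads of Dld 17.3% and 17% crossed a junction with YFP, and 11.4% to 15.5% with the receptors. Unique reads kept every one of its 4 calls, with 0.83 ± 0.18 in WT and 1.00 ± 0.18 in S280D against YFP.

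Ogdh, the E1 subunit that decarboxylates 2-oxoglutarate, lies on chromosome 14 (86414948 to 86613327, 25 exons). It was at 27.9 and 21.8 CPM with YFP, 14.7 and 20.5 with WT, 21.8 and 29.4 with S280A and 14.9 and 17.1 with S280D, so that WT and S280D lay below YFP and S280A. In S280D it fell by 0.64 ± 0.21 on the log2 scale against YFP (edgeR adjusted p = 0.0399) and by 0.68 ± 0.21 against S280A (adjusted p = 0.0266). In WT it was at -0.50 ± 0.21 against YFP (adjusted p = 0.116), and in S280A at 0.54 ± 0.21 against WT (adjusted p = 0.0822). The latter passed with no filter on low counts (0.0422), with an offset for exon length (0.0402) and without S280A replicate 1 (0.0392). The fall against YFP was lost without YFP replicate 1 (0.231), S280D replicate 1 (0.251) or S280D replicate 2 (0.0726), and with lane (-0.58 ± 0.26, 0.15). The fall against S280A was lost without S280A replicate 2 (0.206), S280D replicate 1 (0.181) or S280D replicate 2 (0.0511), and on junction reads (0.0503). It measured -0.98 in lane 1 and -0.35 in lane 2. On unique reads Ogdh in S280D was at -0.69 ± 0.22 against YFP (adjusted p = 0.0266) and at -0.59 ± 0.22 against S280A (0.0477). Intron reads made up 35.2% to 44.8% of the reads in the Ogdh gene.

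Dlst, the succinyltransferase core of the complex on chromosome 6 (108936663 to 108959803, 15 exons), was at 165 and 152 CPM with YFP, 128 and 145 with WT, 163 and 160 with S280A and 133 and 145 with S280D. The WT and S280D libraries were the 4 lowest. The log2 differences were -0.21 ± 0.12 for WT and -0.19 ± 0.12 for S280D against YFP (edgeR adjusted p = 0.212 and 0.23), 0.24 ± 0.12 for S280A against WT (0.142) and -0.22 ± 0.12 for S280D against S280A (0.153). Per kilobase the ratio of Dld to Dlst was 0.789 and 1.09 with YFP, 2.25 and 1.57 with WT, 1.14 and 0.895 with S280A and 2.52 and 1.78 with S280D. It was higher in each WT and S280D library than in each YFP and S280A library. The ratio of Ogdh to Dlst was 0.131 and 0.111 with YFP, 0.0893 and 0.109 with WT, 0.103 and 0.143 with S280A and 0.087 and 0.0916 with S280D, where the S280D libraries were below those of YFP and S280A. With 2 libraries a group the smallest p of an exact two-sided permutation test is 0.333, so the ratios were not tested.

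**Figure D3:**
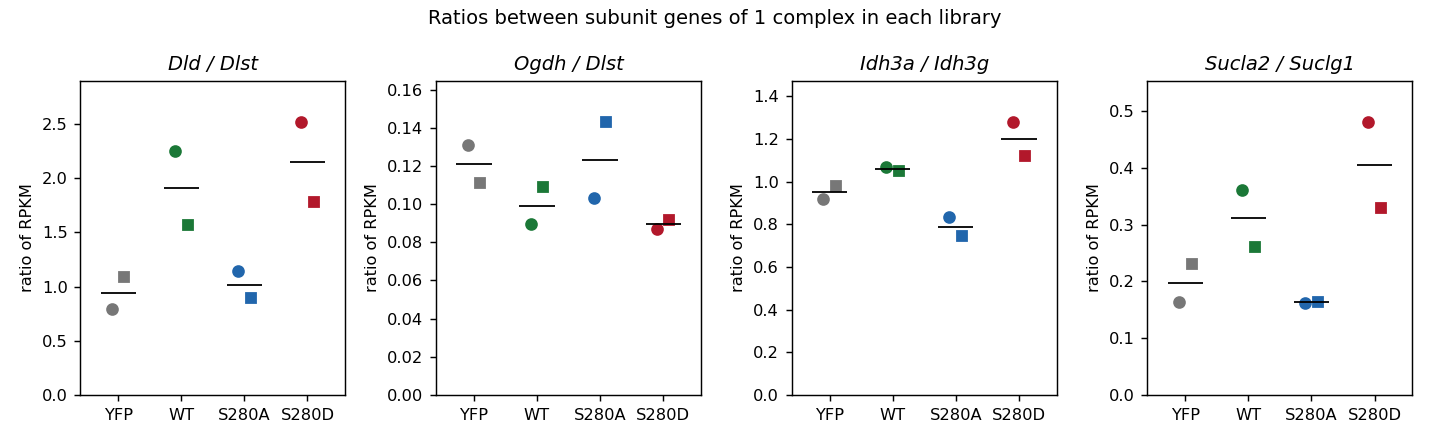
Ratios of RPKM between genes of 1 enzyme complex (vertical axes, from 0) in each library, with circles for replicate 1, squares for replicate 2 and a bar at the mean of 2. Dld over Dlst is 1.57 or more in WT and S280D and 1.14 or less in YFP and S280A, and Idh3a over Idh3g is lowest in S280A.

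Sucla2, which pairs with the α subunit Suclg1 in succinyl-CoA ligase, lies on chromosome 15 (55461694 to 55516952, 11 exons) and rested on 178 to 1268 exon reads a library. It was at 14.6 and 19.5 CPM with YFP, 26.7 and 18.7 with WT, 12.8 and 14.3 with S280A and 30.7 and 23.2 with S280D. The S280A libraries were the lowest, and WT overlapped YFP. In S280D Sucla2 rose 1.58-fold against YFP, a log2 change of 0.66 ± 0.22 (edgeR adjusted p = 0.0382), and 1.99-fold against S280A, 1.00 ± 0.22 (adjusted p = 0.00665). In S280A it was lower than in WT by -0.75 ± 0.22 (adjusted p = 0.0332). In WT it was at 0.42 ± 0.22 against YFP (adjusted p = 0.193). The rise against YFP was lost without YFP replicate 1 (0.226) or S280D replicate 1 (0.276), with the replicate number as a block (0.65 ± 0.23, 0.0563) and with lane (0.79 ± 0.24, 0.0509). The call between S280A and WT was lost without WT replicate 1 (0.285), S280A replicate 1 (0.103) or S280A replicate 2 (0.146), and with lane (-0.90 ± 0.25, 0.0526). The rise against S280A was lost without S280D replicate 1 (0.79 ± 0.26, 0.0674), and measured 1.09 in lane 1 and 0.86 in lane 2. Intron reads were 9.77% to 23.2% of the reads in the Sucla2 gene.

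Suclg1, the partner of Sucla2, was named after its values were seen. It was at 95.2 and 90.1 CPM with YFP, 79 and 76.5 with WT, 84.1 and 93.2 with S280A and 67.9 and 74.9 with S280D, and fell by 0.38 ± 0.12 on the log2 scale in S280D against YFP (edgeR adjusted p = 0.0319). That call was lost with lane (-0.37 ± 0.15, 0.12), no filter on low counts (0.0555), the fit of 4 libraries (0.0653) and junction reads (0.135). It was also lost without YFP replicate 1 (0.133), WT replicate 1 or 2 (0.0579 and 0.0645) or S280D replicate 1 or 2 (0.291 and 0.0638). The ratio of Sucla2 to Suclg1 per kilobase was 0.163 and 0.23 with YFP, 0.361 and 0.261 with WT, 0.162 and 0.164 with S280A and 0.481 and 0.33 with S280D. Each WT and S280D library exceeded each YFP and S280A library.

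Mdh2, which oxidises malate to oxaloacetate, was the most abundant of the 9 enzymes per kilobase of exon, though not in CPM in every group. Mdh2 lies on chromosome 12 (23941447 to 23954431, 9 exons). It was at 308 and 277 CPM with YFP, 182 and 205 with WT, 249 and 333 with S280A and 164 and 168 with S280D. All WT and S280D libraries lay below all YFP and S280A libraries, which is also the division on the first principal component of all genes. Mdh2 fell by 0.60 ± 0.14 on the log2 scale in WT against YFP (edgeR adjusted p = 0.0184), to 0.662 of the level. In S280D it fell by 0.82 ± 0.14 against YFP (adjusted p = 0.00308) and by 0.81 ± 0.14 against S280A (adjusted p = 0.00283). In S280A it was 1.5-fold higher than in WT, 0.59 ± 0.14 (adjusted p = 0.0166).

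Both calls of Mdh2 in S280D held without each library and with lane, which gave -0.72 ± 0.17 against YFP (edgeR adjusted p = 0.0229) and -0.80 ± 0.15 against S280A (adjusted p = 0.00638). Within lane 1 the difference between S280D and S280A was -1.02 and within lane 2 it was -0.57. In WT against YFP the adjusted p of Mdh2 was 0.0892 if YFP replicate 1 was left out, 0.174 and 0.0552 if WT replicate 1 or 2 was, and 0.379 with lane. Between S280A and WT it was 0.159 without WT replicate 1, 0.147 without S280A replicate 2 and 0.0926 with lane (0.48 ± 0.17).

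In the authors' deposited table, with its own test and adjustment, 2, 0, 4, 4, 0 and 6 of the 9 enzymes were called for WT, S280A and S280D against YFP, S280A and S280D against WT, and S280D against S280A. All of those are among the edgeR calls above. In that table the share called of 32258 features was 6.62%, 0.22%, 9.57%, 8.25%, 0.155% and 12.6% in the same order. Only 20259 of these features had exon reads, whereas all 9 enzymes passed the filter on low counts. These shares are therefore lower than they would be among expressed genes, and are not comparable with those of the 12407 genes tested. DESeq2 called 2, 0, 5, 5, 0 and 6 of the enzymes, and kept all 18 calls, where 23.5%, 0.768%, 30.1%, 29.2%, 0.314% and 38.7% of the genes with an adjusted p were called.

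A list of 13 other genes held subunits and enzymes of the cycle (Idh3b, the remaining succinyl-CoA ligase and succinate dehydrogenase subunits, and fumarase) and related enzymes that are not part of it or are paralogs. The latter were cytosolic Aco1, Idh1 and Mdh1, Ogdhl, a paralog of Ogdh, and Dhtkd1, an E1 subunit that acts on 2-oxoadipate. Between WT and YFP 1 of the 13 rose and 4 fell, where 12.2% and 7.45% of all genes passed in these directions. Of these 5, only Sdha and Sdhc, subunits of succinate dehydrogenase, belong to the cycle, at -0.49 ± 0.13 and -0.44 ± 0.13 on the log2 scale (edgeR adjusted p = 0.024 and 0.0386). Dhtkd1 rose by 0.64 ± 0.19 (0.0364), and Aco1, a cytosolic aconitase, was at -0.45 ± 0.14 (0.0458). The fourth that fell was Mdh1 at -0.39 ± 0.12 (0.0475), outside the naming rule, with 0.053 in DESeq2 and -0.16 ± 0.17 (0.568) on junction reads. With lane the log2 changes were -0.43 ± 0.20 for Sdha, -0.28 ± 0.20 for Sdhc, 0.53 ± 0.29 for Dhtkd1, -0.35 ± 0.22 for Aco1 and -0.33 ± 0.20 for Mdh1, with adjusted p of 0.342 to 0.511. The calls of all 5 were lost without YFP replicate 1, WT replicate 1 or WT replicate 2 (0.0715 to 0.276). Each but Sdhc was lost without YFP replicate 2 (0.0548 to 0.13), and each but Sdha without S280D replicate 2 (0.0552 to 0.0745) and with the replicate number as a block (0.0506 to 0.0647). Without S280D replicate 1 Sdhc was at 0.071, Aco1 at 0.0692 and Mdh1 at 0.0917. Sdhc was also lost on junction reads (0.171) and with the exon length offset (0.0591), as was Dhtkd1 with that offset (0.0942) and in the fit of 4 libraries (0.0548). Mdh1 was also lost with RLE factors (0.0518), no filter (0.0714), the fit of 4 libraries (0.0676) and the exon length offset (0.0744).

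Between S280D and YFP 1 of the 13 rose and 6 fell, where 17.1% and 13.7% of all genes passed in these directions. Sdhc was at 76.8 and 67.5 CPM in YFP and 47.6 and 45.9 in S280D, a log2 change of -0.63 ± 0.13 (edgeR adjusted p = 0.00613). The adjusted p was 0.0568 without S280D replicate 1 and 0.109 on junction reads (-0.46 ± 0.21). Dhtkd1 rose by 0.78 ± 0.19 (0.0109), with 0.0662 without S280D replicate 2 and 0.0572 with lane (0.73 ± 0.22). Sdhb was at -0.51 ± 0.14 (0.018), with 0.0917 without YFP replicate 1, 0.198 without S280D replicate 1 and 0.0956 with lane (-0.47 ± 0.17). Mdh1 was at -0.43 ± 0.12 (0.0237), with 0.0693 and 0.0618 without YFP replicate 1 or 2, 0.165 and 0.0936 without S280D replicate 1 or 2, and 0.113 with lane (-0.40 ± 0.16). It was at 0.0539 with the exon length offset and, at -0.25 ± 0.17, at 0.307 on junction reads.

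Between S280D and S280A 0 of the 13 rose and 3 fell, where 21.3% and 18% of all genes passed in these directions. Aco1 was at -0.53 ± 0.14 on the log2 scale (edgeR adjusted p = 0.0135), with 0.132 without S280A replicate 2 and 0.145 without S280D replicate 1. Sdhc was at -0.46 ± 0.13 (0.0183), with 0.151 and 0.108 without these libraries, 0.0833 without S280D replicate 2 and 0.114 on junction reads (-0.45 ± 0.21). Sdhb was at -0.42 ± 0.14 (0.0339), with 0.269 and 0.272 without S280A replicate 2 or S280D replicate 1, 0.0567 and 0.0522 without WT replicate 1 or 2, 0.051 without S280D replicate 2 and 0.062 with lane (-0.41 ± 0.15). Junction reads of Sdhb gave -0.21 ± 0.18 (0.397), the exon length offset -0.28 ± 0.13 (0.101) and the fit of 4 libraries -0.40 ± 0.15 (0.0699). Between S280A and WT 1 of the 13 passed (10.1% of all genes higher): Aco1 rose by 0.50 ± 0.14 (0.0273). This call was lost without WT replicate 1 (0.147), WT replicate 2 (0.106) or S280A replicate 2 (0.207), and with lane (0.45 ± 0.18, 0.124). For S280A against YFP and S280D against WT 0 of 13 passed in edgeR, with 1 and 0 at an unadjusted p under 0.05 and 0 in DESeq2. The 1 was Sdha, at -0.46 ± 0.13 in S280A against YFP (edgeR adjusted p = 0.298) and at 0.03 ± 0.13 in S280A against WT. Shares of all genes near the unadjusted threshold are given above for the same comparisons. With lane as a covariate the falls among these 13 genes numbered 1 between S280D and YFP and 2 between S280D and S280A, and there were 0 calls between WT and YFP or S280A and WT.

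**Figure D4:**
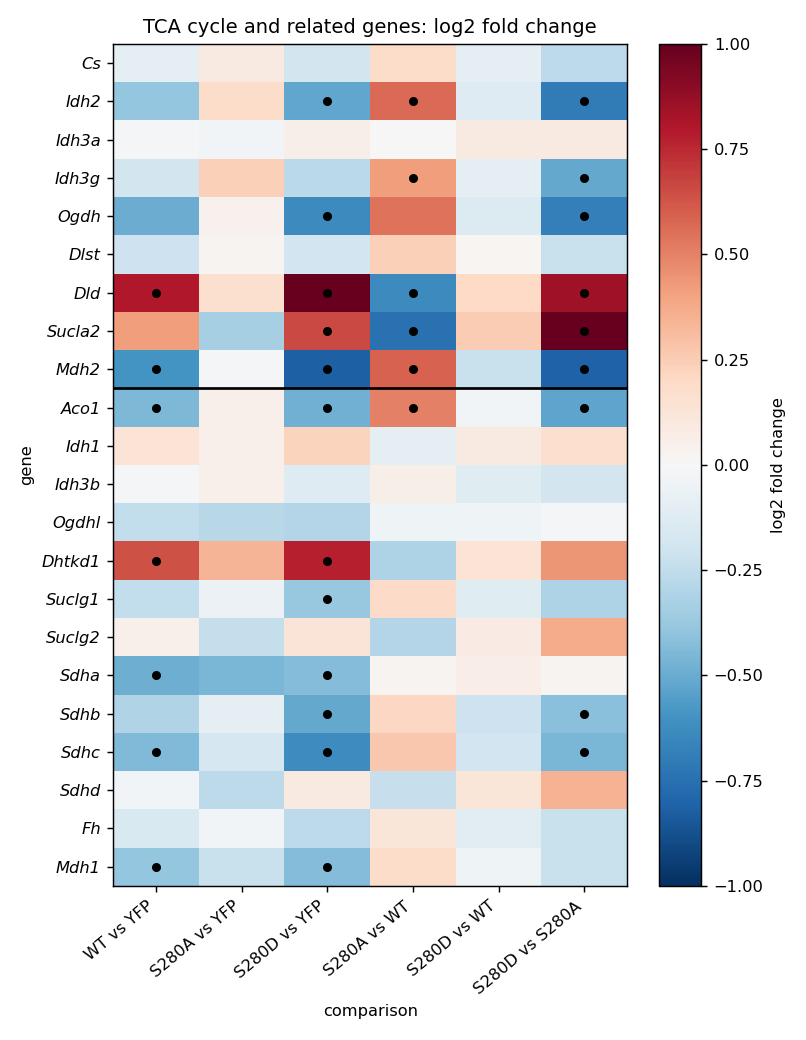
Log2 fold changes (colour, red higher and blue lower, scale ending at -1 and 1) of the 9 enzymes, above the line, and of 13 other genes of the cycle and related enzymes in 6 comparisons; dots mark an adjusted p under 0.05. Dld, Sucla2 and Dhtkd1 are red in WT and S280D against YFP, where most other rows are blue, and no row has a dot in S280A against YFP or S280D against WT.

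Patterns over the 8 libraries were compared among each enzyme and the 21 other genes of both sets by Pearson's r of log2 CPM, as a description without a test, since the libraries share the division seen on the first principal component. The closest gene was Idh2 for Cs (r = 0.978), Cs for Idh3g (0.977), Sdhc for Mdh2 (0.953), Mdh2 for Ogdh (0.948), Ogdh for Dlst (0.904) and Sucla2 for Dld (0.865). Idh3a had no close match, with Idh1 nearest at 0.566. Dld was least like Mdh2 (r = -0.969).

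Genes that feed the cycle and regulate it gave mixed counts. Of all genes 19.6%, 30.7%, 26% and 39.3% passed, in either direction, between WT and YFP, S280D and YFP, S280A and WT, and S280D and S280A. In the same order 12.2%, 17.1%, 10.1% and 21.3% rose and 7.45%, 13.7%, 15.9% and 18% fell. Rises and falls in these lists are read against the shares of the same direction. Between WT and YFP 35.2% of all genes had an unadjusted edgeR p of 0.0482 or less. Between S280D and YFP 43% of all genes had one of 0.0494 or less. Of the 11 tested genes of pyruvate entry (the pyruvate dehydrogenase complex, its kinases and phosphatases, and the pyruvate carriers) 1 rose between WT and YFP, 0 passed between S280D and YFP in edgeR (1 at an unadjusted p under 0.05 and 0 in DESeq2), 1 fell between S280A and WT, and 2 rose between S280D and S280A. Of the 13 tested genes of anaplerosis and metabolite carriers 0 passed between WT and YFP in edgeR (2 at an unadjusted p under 0.05 and 1 in DESeq2), 1 rose and 3 fell between S280D and YFP, 4 rose between S280A and WT, and 7 fell between S280D and S280A. Among them Pck2, the mitochondrial phosphoenolpyruvate carboxykinase, was at 53.9 and 53.7 CPM with YFP, 44.3 and 43.6 with WT, 54.3 and 71.5 with S280A and 38.2 and 39.6 with S280D. Pck2 fell by 0.69 ± 0.14 on the log2 scale in S280D against S280A (edgeR adjusted p = 0.00454), with 0.0501 without S280A replicate 2 and 0.0507 without S280D replicate 1.

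Of the 10 tested regulators of mitochondrial genes 3 rose between WT and YFP, 3 rose and 1 fell between S280D and YFP, 3 fell between S280A and WT, and 2 rose and 3 fell between S280D and S280A, beside the same shares of all genes. Tfb2m, a mitochondrial transcription factor, was at 15.6 and 14.9 CPM with YFP, 33 and 28.1 with WT, 19.5 and 17.1 with S280A and 40.5 and 33.4 with S280D. It rose by 1.28 ± 0.16 on the log2 scale in S280D against YFP (edgeR adjusted p = 0.000754) and by 1.00 ± 0.16 in WT (0.00475), the latter with 0.0635 without WT replicate 1 and 0.107 with lane (1.06 ± 0.25). Gabpa, the DNA-binding subunit of GABP, was at 10.4 and 13.3 CPM with YFP, 26.2 and 22.2 with WT, 11.9 and 8.37 with S280A and 35.5 and 21.8 with S280D. Gabpa rose by 1.28 ± 0.25 in S280D (0.00456) and by 1.03 ± 0.25 in WT (0.0186), the latter with 0.107 if YFP replicate 1 was left out, 0.147 if WT replicate 1 was, and 0.166 with lane (1.21 ± 0.38). For S280A against YFP and S280D against WT 0 genes of these 3 lists passed in edgeR, and 0 in DESeq2. At an unadjusted p under 0.05 there were 1, 0 and 0 in the first and 1, 0 and 0 in the second for pyruvate entry, anaplerosis and regulators. Of all genes 12.9% had an unadjusted edgeR p of 0.0566 or less in the first, and 4.11% one of 0.0428 or less in the second. With lane as a covariate pyruvate entry had 1 rise and anaplerosis 5 falls between S280D and S280A, and both had 0 calls otherwise. Regulators had 2 rises between S280D and YFP, 2 falls between S280A and WT, and 2 of each between S280D and S280A. Between WT and YFP they had 0. With lane the shares of all genes were 0.0725% and 13.3% for WT and S280D against YFP, 8% for S280A against WT and 32.3% for S280D against S280A.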

How the data were processed

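Poly(A) RNA of H9C2 cells was sequenced in 8 libraries, 2 in each of 4 groups, after 15 PCR cycles, per the labels' protocols. The authors deposited raw counts per gene and library (total exon, unique exon, exon-exon and intron reads, not normalized), with p-values of their own tests adjusted for the false discovery rate, per the file headers. The reads were placed on Rnor_6.0, per the submitters' processing notes, with an aligner not given in the sources used here. For the second WT library the title says 2 and the description 3, and the title was used.

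Tests on exon reads used edgeR 4.0.16 (R 4.3.3): filterByExpr, TMM scaling, a quasi-likelihood fit of all 8 libraries with 1 coefficient per group (4 residual degrees of freedom), two-sided contrasts, and Benjamini-Hochberg adjustment over 12407 genes at 0.05. Levels are TMM-scaled CPM, and RPKM divide them by the exon length of the table. PCR copies are not independent molecules, and the labels name no molecular identifiers. No 2 libraries agreed within sampling noise. The fitting code was tested on simulated data.

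The 9 enzymes and the other gene lists were chosen with earlier results of these data known. The naming rule took the 9 enzymes, Ppara and, of each other list, up to 4 genes a comparison with the smallest adjusted p below 0.05. For pyruvate entry, anaplerosis and regulators only some of the genes and comparisons that met this rule are given. Pdk3, Got2 and Sirt3 are among the genes that met it and have no values above. Some genes of the other lists are not reported here and were left out of their counts. Of the 100 list symbols 98 were in the table, with Idh3b matched ignoring case. Alternatives were RLE factors, no filter, DESeq2 1.42.0, a filter at 1 CPM in 2 libraries, only the 4 libraries compared, a replicate block, lane, unique reads, an exon length offset, an added 1.5-fold threshold and leaving out each library. A lone library left in a group is assumed to vary like those of other groups. Exon-exon reads and crossed replicate numbers were added after seeing the data.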

Additional observations from a re-analysis of the deposited data

How the results depend on the processing

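Each library held 14018785 exon reads or more and each enzyme 178 or more a library, in 2 libraries a group. The part of depth or of the number of libraries in the calls was not tested. Of the 18 calls of enzymes, all 18 held with RLE factors, DESeq2, the 1 CPM filter and unique reads. With the exon length offset, no filter and the fit of 4 libraries 17 held each, with the replicate block 16, on exon-exon reads 15, with the 1.5-fold threshold 14 and with lane 8. Calls lost with the 1.5-fold threshold among genes of the other lists are not given above. Enzymes called numbered 2, 5, 5 and 6 for WT against YFP, S280D against YFP, S280A against WT and S280D against S280A. With lane the first 3 were 0, 2 and 0, and with the 1.5-fold threshold the third was 3. Leaving out 1 library in turn gave 0 to 3, 2 to 5, 0 to 5 and 1 to 6, and 0 to 0 for S280A against YFP and S280D against WT.

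With the replicate block the counts of enzymes were 2, 4, 4 and 6, and those of all genes 2152, 3398, 2859 and 4620. Same-numbered deviations from the group means correlated at -0.173 to 0.205 over the 6 comparisons, each from 2 numbers, so the numbers are not shown to pair the libraries. For S280A and S280D against YFP the correlation was -0.173 and -0.144, and with the YFP numbers crossed 0 and 5 enzymes and 269 and 5356 of all genes were called.

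Of all genes 2437, 5, 3815, 3226, 5 and 4873 were called for WT, S280A and S280D against YFP, S280A and S280D against WT, and S280D against S280A. Lane gave 9, 2, 1654, 993, 1 and 4009, exon-exon reads 1315, 49, 2059, 1445, 2 and 2447, and the 1.5-fold threshold 1725, 5, 2495, 2121, 5 and 3176. For S280A against YFP and S280D against WT no filter gave 278 and 129, the fit of 4 libraries 38 and 33, and DESeq2 86 and 39. Without 1 library the ranges were 163 to 2917, 2 to 131, 917 to 4152, 6 to 3859, 0 to 13 and 1254 to 5223. The cause of these shifts was not tested.

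Signs changed in 43 single values of enzymes, of which 0 had passed the test and 28 moved by no more than 1 SE. In log2 fold change, lane gave 0.02 for Idh3a in WT against YFP and, in S280A against YFP, -0.01 for Dlst and 0.08 for Mdh2. Exon-exon reads gave 0.01 for Idh3g in WT against YFP, then -0.03 for Idh2, -0.11 for Ogdh, -0.17 for Dlst and -0.18 for Dld in S280A against YFP. They also gave -0.09 for Idh3a in S280D against YFP, 0.19 for Idh3a in S280A against WT, 0.03 for Cs in S280D against WT, and -0.04 for Idh3a and 0.01 for Dlst in S280D against S280A. Unique reads gave -0.10 for Ogdh in S280A against YFP and 0.01 for Idh3a in S280A against WT, where the length offset gave 0.05. A value of 0 came with no filter for Dlst, and with RLE factors, DESeq2 and 4 libraries for Mdh2, in S280A against YFP, and with RLE factors and DESeq2 for Idh3a in S280A against WT. Leaving out 1 library gave, against YFP, -0.11 to 0.06 for Idh3a in WT, and in S280A 0 to 0.17 for Cs, -0.03 to 0.40 for Idh2, -0.11 to 0.05 for Idh3a, -0.17 to 0.24 for Ogdh, -0.03 to 0.08 for Dlst, -0.05 to 0.36 for Dld and -0.21 to 0.18 for Mdh2. It gave -0.02 to 0.15 for Idh3a in S280D against YFP, -0.04 to 0.06 for Idh3a in S280A against WT, and, in S280D against WT, -0.36 to 0.13 for Ogdh, -0.07 to 0.13 for Dlst and 0 to 0.38 for Dld. The pyruvate dehydrogenase phosphatase Pdp2, at 0.65 ± 0.22 in S280D against S280A, was at -0.70 ± 1 on exon-exon reads. With that SE the latter value does not show a fall (edgeR adjusted p = 0.642).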
